A study of Drosophila melanogaster with 12 samples.

Results

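The takeout genes of Drosophila melanogaster encode small secreted proteins that resemble the juvenile hormone (JH) binding proteins of moths. Described here are takeout (to) and 9 related genes, as far as they were measured, in adult females that had or lacked the corpora allata (CA), the gland that makes JH. The 10 members were named by a fixed list that includes a run of neighbouring genes on chromosome arm 2L, and each was read from a probe set annotated to that gene and no other. Of the 10 members, 8 had such a probe set, out of 11983 genes with 1 on the array, and all 8 stayed among the 9969 genes tested. These were CG33307, CG8997, CG7916, CG7953 and CG7968 of the 2L run, Jhbp12 (CG13618), dyw (CG2650) and Jhbp5 (CG10407). The takeout gene itself and CG33306, also in the 2L run, had no probe set of their own in the annotation used here and were not analysed here. The members were chosen by earlier values from these same arrays, and it is not stated from which comparison, so all differences between genotypes for the 8 measured members are given as a description. Counts of members called in the fit over all genes appear beside the share over all genes, and no member's call is used as a test of that member.

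Proteins of this family fold into a long pocket for a hydrophobic ligand. In the moth Manduca sexta the haemolymph JH binding protein carries JH through the blood, while the ligands of most Drosophila members are not known. In flies takeout mRNA cycles under the circadian clock, responds to starvation, and is made in the fat body around the brain, more in males than in females, where it takes part in courtship. The gene dyw (daywake) lies next to the clock gene period (per) on the X chromosome and affects daytime sleep. The family is spread over the genome in short runs of adjacent genes.

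Abundance of mRNA was measured in whole females on 12 Affymetrix Drosophila 2.0 arrays, 3 for each of 4 genotypes, with 25 pooled females per array taken from cages of 125. In CAKO females, Aug21-Gal4 with UAS-GFP drove UAS-NIPP1, an inhibitor of protein phosphatase 1, to ablate the CA, and wildtype females had intact CA. OvoD1 females carried a dominant mutation that arrests oocytes early and leaves the female sterile with intact CA, and CAKO;OvoD1 females carried the mutation and lacked the CA. Age was 14 days in the protocol and 15 days in the sample labels. The series design gives wildtype and OvoD1 a mixed wDah/w1118 background, and the study's text is not uniform on the background of the fertile pair. Its array legend places wildtype and CAKO in wDah and both OvoD1 genotypes in the mixed background. Background and genotype thus cannot be told apart where the pairs are set against each other. If wildtype was mixed and CAKO was not, this holds within the fertile pair too. The control for CAKO on the arrays was wildtype, not the driver or the responder alone, and the Aug21 driver is not strictly limited to the CA. Values are on the log2 scale of the deposited table, which bottoms out at 2.13, the floor.

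The genotype checks moved with their labels, although jhamt differed with sterility as well. The JH-synthesis gene jhamt, which encodes JH acid methyltransferase, was 2.88-fold lower in CAKO than in wildtype (limma, adjusted p = 0.00213) and 5.08-fold lower in CAKO;OvoD1 than in OvoD1 (adjusted p = 0.000487). It was also 3.98-fold higher in OvoD1 than in wildtype (limma, adjusted p = 2.87e-05). Its log2 mean of 4.30 in CAKO;OvoD1 was thus near the 4.65 of wildtype. In OvoD1 the germ line gene ovo fell 16.7-fold from wildtype (adjusted p = 9.6e-11). Among markers of other tissues, 8 of 13 tested eggshell genes of the follicle cells were called lower in CAKO than in wildtype, beside 2.43% of all genes. A call needed a change of 1.5-fold or more with a limma adjusted p below 0.05. All 13 had negative log2 differences in CAKO, from -3.86 to -1.18. In OvoD1 against wildtype all 13 were called lower, beside 28.6% of all genes. For the 12 tested germ line genes the median log2 difference was -0.07 in CAKO and -4.96 in OvoD1. Genes of muscle and of photoreceptors had median log2 differences of 0.64 and 0.96 in OvoD1 against wildtype. In whole females, fewer cells of a type and less RNA per cell cannot be told apart.

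The 2L run holds 5 of the measured members. In genomic order it reads CG33307, CG33306, CG8997, CG7916, CG7953 and CG7968, with no other annotated gene between them. All 4 of the genes at the CG8997 end were lowest in wildtype, higher in CAKO and higher still in both sterile genotypes. CG33307, at the other end, was instead lowest in CAKO. All 5 were higher in sterile than in fertile females.

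CG8997 had log2 values of 12.24, 12.53 and 11.93 on the wildtype arrays, 13.36, 13.58 and 13.44 in CAKO, 14.26, 14.38 and 14.45 in OvoD1, and 14.53, 14.46 and 14.63 in CAKO;OvoD1. No array of one genotype overlapped those of another, although the sterile genotypes were set apart by a narrow margin. The CAKO mean was 2.34-fold above wildtype (log2 difference 1.23, SE 0.13), the OvoD1 mean was 4.37-fold above wildtype, and the CAKO;OvoD1 mean was 1.13-fold above OvoD1 (0.18, SE 0.13).

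CG7953 had log2 values of 11.25, 11.55 and 11.04 in wildtype, 12.34, 12.77 and 12.39 in CAKO, 13.39, 13.57 and 13.60 in OvoD1, and 13.78, 13.63 and 14.09 in CAKO;OvoD1. The order of genotypes was that of CG8997, again without overlap. The log2 difference was 1.22 (SE 0.17) in the fertile pair, 0.31 (SE 0.17) in the sterile pair and 2.24 (SE 0.17) between OvoD1 and wildtype. CG7968 had log2 values of 8.21, 8.49 and 8.0 in wildtype, 9.75, 9.81 and 9.56 in CAKO, 11.19, 11.19 and 11.20 in OvoD1, and 11.73, 11.69 and 11.66 in CAKO;OvoD1. In the fertile pair and between OvoD1 and wildtype its distances were the widest of the 5 measured genes of the run. CAKO was 2.78-fold above wildtype (1.48, SE 0.11), CAKO;OvoD1 was 1.42-fold above OvoD1 (0.50, SE 0.11), and OvoD1 was 7.77-fold above wildtype (2.96, SE 0.11).

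CG7916 had log2 values of 10.69, 11.12 and 10.02 in wildtype, 11.70, 11.70 and 11.89 in CAKO, 13.23, 13.36 and 13.50 in OvoD1, and 13.21, 13.06 and 13.11 in CAKO;OvoD1. It differed from its neighbours in the sterile pair, where every CAKO;OvoD1 array was below every OvoD1 array while every CAKO array was above every wildtype array. The margin in the sterile pair was narrow, with 13.21 in CAKO;OvoD1 and 13.23 in OvoD1 on the closest arrays. The log2 difference was 1.15 (SE 0.23) in fertile and -0.23 (SE 0.23) in sterile females. Wildtype was its most variable genotype (SD 0.55, n = 3), and without wildtype replicate 3 the fertile difference was 0.86.

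CG33307 had log2 values of 8.33, 8.64 and 8.49 in wildtype, 8.07, 7.88 and 7.59 in CAKO, 10.22, 10.26 and 9.99 in OvoD1, and 9.81, 9.58 and 9.40 in CAKO;OvoD1. Females without CA were lower in both pairs, with no overlap. The log2 difference was -0.64 (SE 0.15) in fertile and -0.56 (SE 0.15) in sterile females, so the sizes lay within 1 SE of each other. OvoD1 was 3.19-fold above wildtype and CAKO;OvoD1 was 3.36-fold above CAKO. CG33307 and its 4 measured neighbours thus shared the direction of the sterility difference and not that of the CA difference in fertile females.

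**Figure D1:**
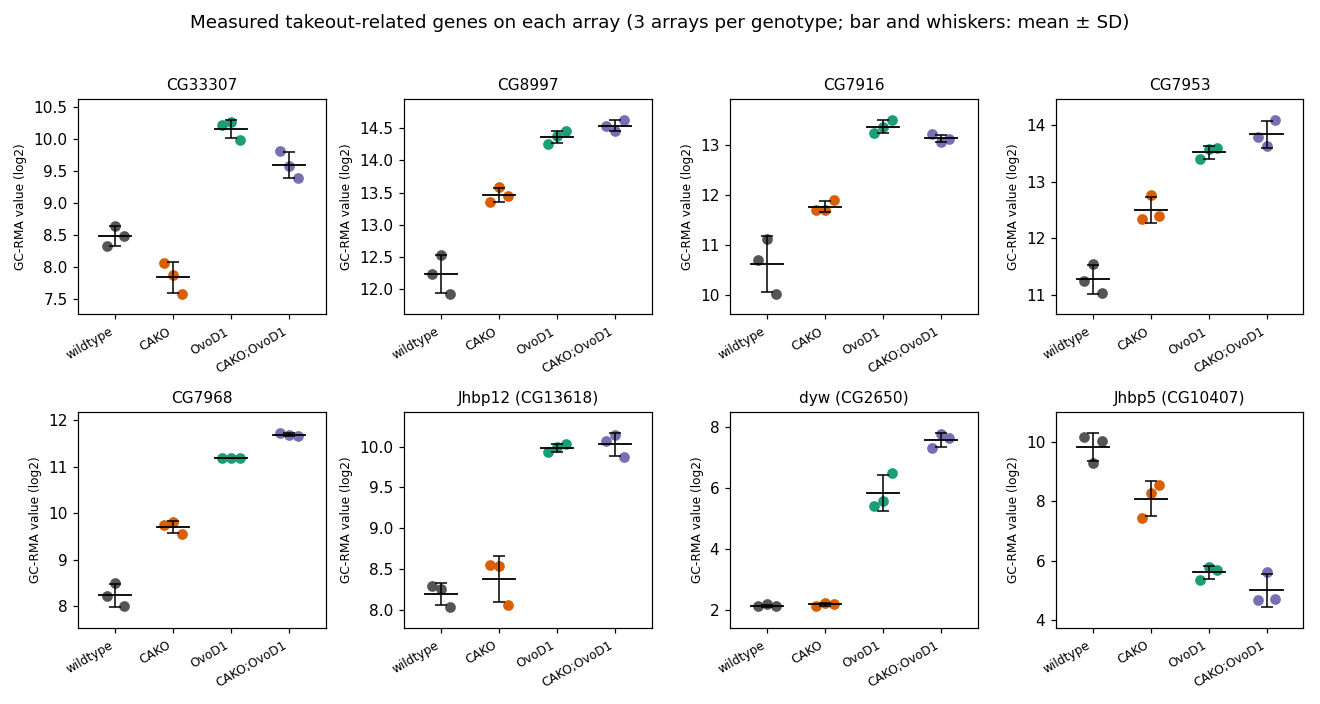
Log2 GC-RMA values (vertical axes, each panel with its own range) of the 8 measured members on every array of wildtype, CAKO, OvoD1 and CAKO;OvoD1 females, 1 point per array, with the mean and SD of 3 arrays. CG8997, CG7916, CG7953 and CG7968 step upward from wildtype through CAKO to the sterile genotypes, CG33307 is lower without CA in both pairs, dyw lies at the floor in both fertile genotypes, and Jhbp5 steps downward.

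The wildtype arrays also ranked alike in the run. Replicate 2 was highest and replicate 3 lowest in wildtype for CG8997, CG7916, CG7953 and CG7968, while in CG33307 replicate 2 was highest and replicate 1 lowest. This order was not particular to the run. It also held in the family genes Jhbp7 (CG11852), CG14259, CG31207, Jhbp13 (CG5945), CG7079 and CG16820, which lie elsewhere. In the remaining tested family genes the order was another or the values lay at the floor. After the mean of each genotype was taken away, the 6 pairs among the 4 genes at the CG8997 end correlated over the 12 arrays with Pearson's r of 0.57 to 0.88. CG33307 had r of -0.04 with CG8997, -0.08 with CG7953 and 0.50 with CG7968 on the same measure. Over all 28 pairs of measured members these values ran from -0.58 to 0.88. The arrays share flies, extraction and normalization across genes, so these correlations are a description.

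In the 4 genes at the CG8997 end the CAKO mean lay between those of wildtype and OvoD1. On the log2 scale it reached 57.8% of that distance in CG8997, 41.9% in CG7916, 54.5% in CG7953 and 49.9% in CG7968. Jhbp5, which was lower in both genotypes, reached 41.3% in the downward direction. Jhbp12 reached 10.4%, and no share is given for dyw, which lay at the floor in wildtype and CAKO. Both distances share the wildtype arrays. The shares depend on the scaling, and with arrays centred on muscle and photoreceptor genes they were 74.5% in CG8997, 48.1% in CG7916, 68.5% in CG7953, 58.0% in CG7968, 38.7% in Jhbp5 and 2.02% in Jhbp12.

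The genes flanking the run on 2L were given by a rule of the 3 nearest tested genes on each side. None of the 6 was called in CAKO against wildtype, in CAKO;OvoD1 against OvoD1 or in the interaction. On the CG33307 side, Orc5, a subunit of the origin recognition complex, and mRpS23, a mitochondrial ribosomal protein, fell when OvoD1 was set against wildtype (log2 fold changes -3.92 and -1.09, limma, adjusted p = 3.02e-08 and 2.06e-06). CenG1A, an Arf GTPase activating protein, had a log2 difference of 0.29 (adjusted p = 0.0614). On the CG7968 side, the peptidase gene Ance and its relative Ance-3 rose in OvoD1 against wildtype by 1.30 and 1.57 on the log2 scale (adjusted p = 2.34e-06 and 1.27e-05), and Vajk1 was near the floor in all genotypes. The log2 differences of Ance and Ance-3 in CAKO against wildtype were -0.09 (SE 0.10) and 0.44 (SE 0.16).

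**Figure D2:**
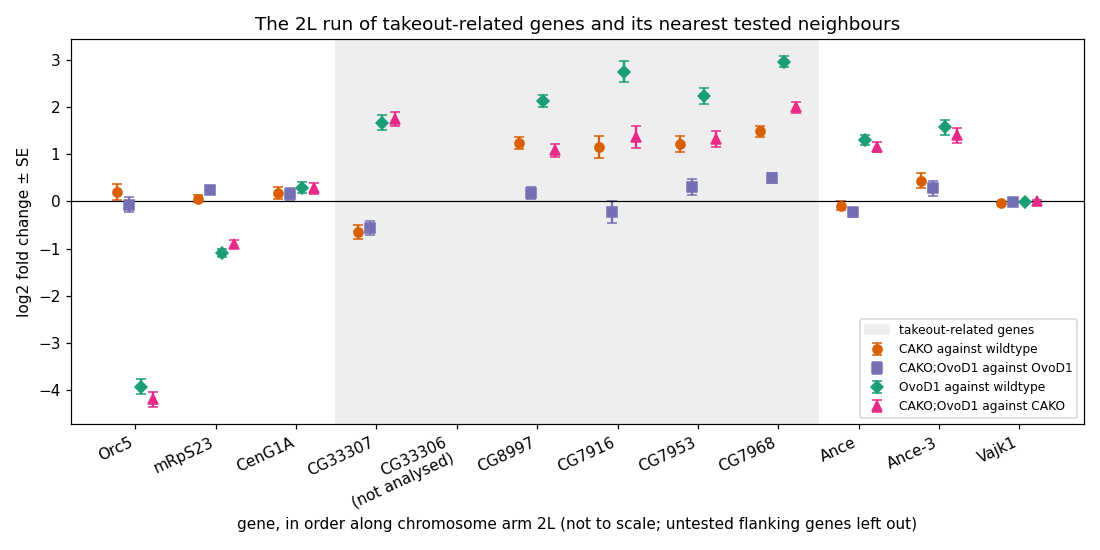
Log2 fold change with SE (vertical axis) for genes in their order along chromosome arm 2L (horizontal axis, not to scale), with the run shaded. The 4 genes from CG8997 to CG7968 lie between 1.15 and 1.48 in CAKO against wildtype, whereas CG33307 lies at -0.64 and the 6 flanking genes lie between -0.09 and 0.44.

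The 5 genes whose 12 values were most like the mean of the measured 2L members, among 4275 tested genes with an SD of at least 0.5, were CG30016, CG13585, LManV, CG31769 and CG1889, with Pearson's r of 0.994 to 0.995. In this search the genotype means were not taken away, so r includes the differences between genotypes. LManV encodes a lysosomal alpha-mannosidase. Its log2 fold changes were 1.29 in CAKO, 0.35 in CAKO;OvoD1 against OvoD1 and 3.26 in OvoD1 against wildtype. The like search for single members, added after their values were seen, placed CG7953 first for CG8997 and CG8997 first for CG7953 (r = 0.995). The lipase gene mag was second for CG8997 (r = 0.994), and the maltase genes Mal-A3 and Mal-A4 followed for CG7953 (r = 0.989 each). Among the 3 genes nearest to CG7916 was Lsp2 (r = 0.983), a storage protein of the larval fat body. Lsp2 had mean log2 values of 3.84 in wildtype, 8.20 in CAKO, 14.07 in OvoD1 and 13.06 in CAKO;OvoD1, and its fertile difference was 4.36 (SE 0.30, limma, adjusted p = 4.14e-05). The other 2 tested genes of the larval fat body list were at the floor on all arrays.

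The remaining 3 measured members lie apart from the run. Jhbp12, on 3R, had log2 values of 8.29, 8.26 and 8.04 in wildtype, 8.55, 8.54 and 8.06 in CAKO, 9.93, 9.99 and 10.03 in OvoD1, and 10.07, 10.14 and 9.87 in CAKO;OvoD1. Its arrays overlapped within the fertile pair and within the sterile pair and separated by fertility. The log2 difference was 0.19 (SE 0.14) in fertile females, 0.05 (SE 0.14) in sterile females, and 1.78 (SE 0.14) between OvoD1 and wildtype. The genes most like it were kappaTry, a trypsin (r = 0.995), CG8539 and CG34198.

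The gene dyw had log2 values of 2.13, 2.19 and 2.13 in wildtype and 2.13, 2.23 and 2.22 in CAKO, all within 0.2 of the floor, and 5.42, 5.57 and 6.49 in OvoD1 and 7.29, 7.75 and 7.62 in CAKO;OvoD1. It was above the floor in sterile females only, and the CAKO;OvoD1 arrays were all above the OvoD1 arrays. The mean was at least 11.3-fold higher in OvoD1 than in wildtype and at least 37.2-fold higher in CAKO;OvoD1 than in CAKO, where at least means that the fertile value was set to no less than 0.2 above the floor. Between the sterile genotypes the log2 difference was 1.73 (SE 0.25), and without OvoD1 replicate 3, the highest of its group, it was 2.06. The fertile pair gives no fold, since both genotypes lay at the floor.

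The neighbours of dyw were looked up after its values were seen. The clock gene per, beside dyw, had log2 means of 5.28 in wildtype, 5.85 in CAKO, 6.71 in OvoD1 and 6.82 in CAKO;OvoD1. It rose 2.69-fold in OvoD1 against wildtype (limma, adjusted p = 0.000518), and its sterile pair difference was 0.12 (SE 0.24, adjusted p = 0.846). On the other side Spg7 and Ugalt differed between OvoD1 and wildtype by -0.57 and -0.56 on the log2 scale, and Lint-O by -3.91. Of 8 listed clock genes, 2 rose in CAKO against wildtype, namely vri (2.04-fold, adjusted p = 0.00348) and cry (1.60-fold, adjusted p = 0.00358), against 4.01% of all genes tested called higher. None was called in CAKO;OvoD1 against OvoD1, and 6 rose and 1 fell in OvoD1 against wildtype, beside 25.2% and 28.6% of all genes. With muscle and photoreceptor centring 3 rose and 2 fell in OvoD1 against wildtype, beside 12.6% and 64.3%. Under that centring 1 rose in CAKO against wildtype, beside 2.96% of all genes. In CAKO;OvoD1 against OvoD1 1 then fell, with no share over all genes given here. The centring moved all log2 differences of that pair by -0.287, so nothing is read from this fall. By likeness over the 12 arrays, the genes nearest to dyw were pkm (r = 0.994), inaE, a diacylglycerol lipase gene of photoreceptors (r = 0.992), and CG33099 (r = 0.990). All fertile arrays of dyw lay at the floor, so these r values largely follow the split between fertile and sterile females. The 3 genes changed less than dyw, with log2 differences of 1.06, 0.83 and 1.24 in OvoD1 against wildtype.

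Jhbp5 was the measured member with the opposite course. On the arrays it read 10.15, 9.28 and 10.04 in wildtype, 7.43, 8.29 and 8.54 in CAKO, 5.35, 5.80 and 5.68 in OvoD1, and 4.67, 5.64 and 4.71 in CAKO;OvoD1. Every step down was without overlap except the last, where CAKO;OvoD1 replicate 2 lay among the OvoD1 arrays. CAKO was 3.34-fold below wildtype (-1.74, SE 0.37), OvoD1 was 18.6-fold below wildtype (-4.21, SE 0.37), and the sterile pair differed by -0.60 (SE 0.37). Its nearest genes by likeness were CG30440 (r = 0.985), the eggshell gene dec (r = 0.983) and CG14834 (r = 0.982). Eggshell genes moved the same way. The 13 tested had median log2 differences of -2.22 in CAKO and -9.52 in OvoD1 against wildtype, and their part in the Jhbp5 values was not tested. The gene next to Jhbp5, Jhbp4 (CG10264), was left out as a low value in all 4 genotypes.

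**Figure D3:**
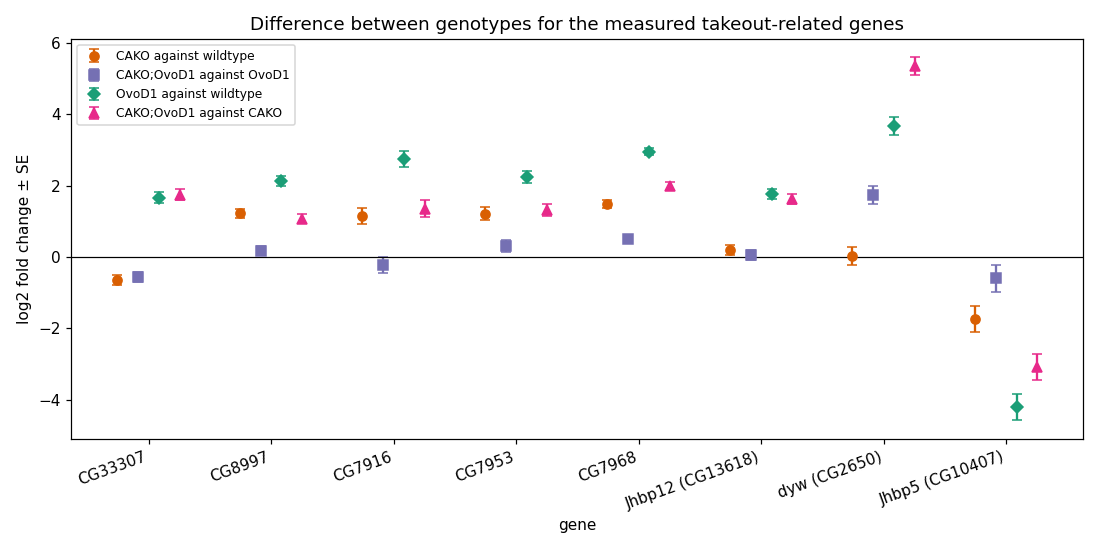
Log2 fold change with SE (vertical axis) of each measured member (horizontal axis) in the 2 comparisons of females without and with CA and the 2 comparisons of sterile and fertile females. CAKO against wildtype (circles) and CAKO;OvoD1 against OvoD1 (squares) lie apart for CG8997, CG7916, CG7953 and CG7968 and together for CG33307 and Jhbp12, and the dyw values of both fertile genotypes are at the floor.

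Calls needed a change of 1.5-fold or more with an adjusted p below 0.05 in a fit over all genes. In CAKO against wildtype 6 of the 8 measured members were called, beside 6.44% of all 9969 genes, of which CG8997, CG7916, CG7953 and CG7968 were higher and CG33307 and Jhbp5 lower. In CAKO;OvoD1 against OvoD1 only dyw was called, beside 4.66% of all genes. In OvoD1 against wildtype and in CAKO;OvoD1 against CAKO all 8 were called, 7 higher and Jhbp5 lower, beside 53.8% and 52.2% of all genes. Since the members were chosen with such values known, nothing is read from these counts. Likewise 6 members had no overlap between arrays in the fertile pair, beside 32.8% of all genes, and 6 in the sterile pair, beside 30.5%. The median log2 difference over the measured members was 0.67 in fertile and 0.11 in sterile females, and 2.18 between OvoD1 and wildtype, with medians of 0.00 over all genes.

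The difference between the pairs, the sterile minus the fertile effect, was -1.05 (SE 0.19) in CG8997, -1.39 (SE 0.32) in CG7916, -0.91 (SE 0.24) in CG7953, -0.97 (SE 0.15) in CG7968 and 1.14 (SE 0.53) in Jhbp5. CG33307 and Jhbp12 had 0.08 (SE 0.21) and -0.14 (SE 0.19). No value is given for dyw, whose fertile pair lay at the floor. The fit called 4 members, 3 lower and dyw higher, beside 3.78% of all genes, 1.44% called higher and 2.34% lower. As in the other comparisons nothing is read from this count, which fell to 2 in 7 of the 12 fits that left out 1 array.

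Scaling changed the size of the values between fertile and sterile females. Centring each array on its median raised OvoD1 against wildtype by 0.373 on the log2 scale, while the median of 30 muscle and photoreceptor genes, used as the centre, moved it by -0.698. With the muscle and photoreceptor centring the 7 members higher in OvoD1 than in wildtype stayed higher, from 0.97 in CG33307 to 2.98 in dyw, and Jhbp5 was at -4.91. In the fertile pair this centring left CG8997 at 1.06, CG7916 at 0.99, CG7953 at 1.06, CG7968 at 1.31 and CG33307 at -0.80. In the sterile pair it turned CG8997 to -0.11 and Jhbp12 to -0.24, put CG7953 at 0.02, and left CG7968 at 0.22, CG7916 at -0.52 and CG33307 at -0.85. The direction in the sterile pair thus depends on the scaling for CG8997 and Jhbp12. Between CAKO;OvoD1 and CAKO, CG8997, CG7916 and CG7953 were then at 0.26, 0.54 and 0.51 and no longer called.

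Outside the members, 18 further takeout family genes were listed from the annotation, a list that is not complete and was also drawn up with results of these arrays known. A probe set of their own was found for 17, and 16 were tested. In CAKO against wildtype 9 of the 16 rose and none fell, beside 4.01% and 2.43% of all genes. The median log2 fold change over the 16 was 0.66, beside 0.00 over all genes. The highest were Jhbp11 (CG17189) at 1.34 (SE 0.17, limma, adjusted p = 0.000906), Jhbp7 (CG11852) at 1.21 (SE 0.10, adjusted p = 9.83e-05), CG14259 at 1.12 (SE 0.11, adjusted p = 0.00021) and Jhbp2 (CG2016) at 1.08 (SE 0.12, adjusted p = 0.000466). With muscle and photoreceptor centring 7 of the 9 were called, beside 2.96% of all genes called higher under that centring, and Jhbp3 (CG14661) and Jhbp13 (CG5945) were then under the fold threshold at 0.53 and 0.46.

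Jhbp7 and CG11854 lie on either side of takeout on 3R. Jhbp7 had log2 means of 7.56 (SD 0.15, n = 3) in wildtype, 8.76 (SD 0.19) in CAKO, 9.30 in OvoD1 and 10.15 (SD 0.07) in CAKO;OvoD1. It was the only tested family gene outside the members called higher without CA in both pairs, with a 2.31-fold change in the fertile pair and a 1.80-fold change in the sterile pair (adjusted p = 0.0011). With muscle and photoreceptor centring the sterile value was 0.56 on the log2 scale and under the fold threshold. Its interaction value was -0.36 (SE 0.14, adjusted p = 0.201). CG11854 had log2 values within 0.2 of the floor in wildtype and CAKO and a mean of 5.03 (SD 1.67) in OvoD1, with 1 OvoD1 array at 3.12. CAKO;OvoD1 had a mean of 2.40, a log2 difference of -2.64 (SE 0.65, adjusted p = 0.0337) from OvoD1. That call was lost when any of 9 arrays was left out (adjusted p = 0.0504 to 0.107). Without OvoD1 replicate 3, the array at 3.12, the sterile difference was -3.6 (adjusted p = 4.3e-06), OvoD1 against wildtype was 3.85 in place of 2.89, and the interaction was called at -3.62 (adjusted p = 3.35e-05) where it was -2.66 (adjusted p = 0.153) with all arrays.

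The nearest tested genes beyond them were Alg9 and Sil1 on the Jhbp7 side and bam and Nup37 on the CG11854 side. All 4 were lower in OvoD1 than in wildtype, from -1.16 in Alg9 to -5.79 in bam, a germ line differentiation gene, on the log2 scale, and none was called in CAKO against wildtype. Sil1, an endoplasmic reticulum chaperone cofactor, rose in CAKO;OvoD1 against OvoD1 by 0.73 (SE 0.15, limma, adjusted p = 0.0149).

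Several family genes outside the member run also lie side by side. The adjacent genes Jhbp3, Jhbp2 and Jhbp1 (CG1124) on 3R had fertile log2 differences of 0.69, 1.08 and 0.76, all called, and sterile differences of 0.31, 0.49 and 0.51, none called. CG14259 and Jhbp11, with 1 gene between them, had 1.12 and 1.34 in fertile females and 0.56 and 0.33 in sterile females. In the run CG31189, CG31207, CG7079 and Jhbp15 (CG17279), CG31189 and CG7079 rose in CAKO against wildtype by 0.83 and 0.85, CG31207 had 0.26 (SE 0.09, adjusted p = 0.0982), and Jhbp15 lay at the floor in both fertile genotypes and OvoD1. On 2L outside the member run, the adjacent Jhbp14 (CG5867) and Jhbp13 had 0.47 (SE 0.08), under the fold threshold, and 0.62 (SE 0.08).

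**Figure D4:**
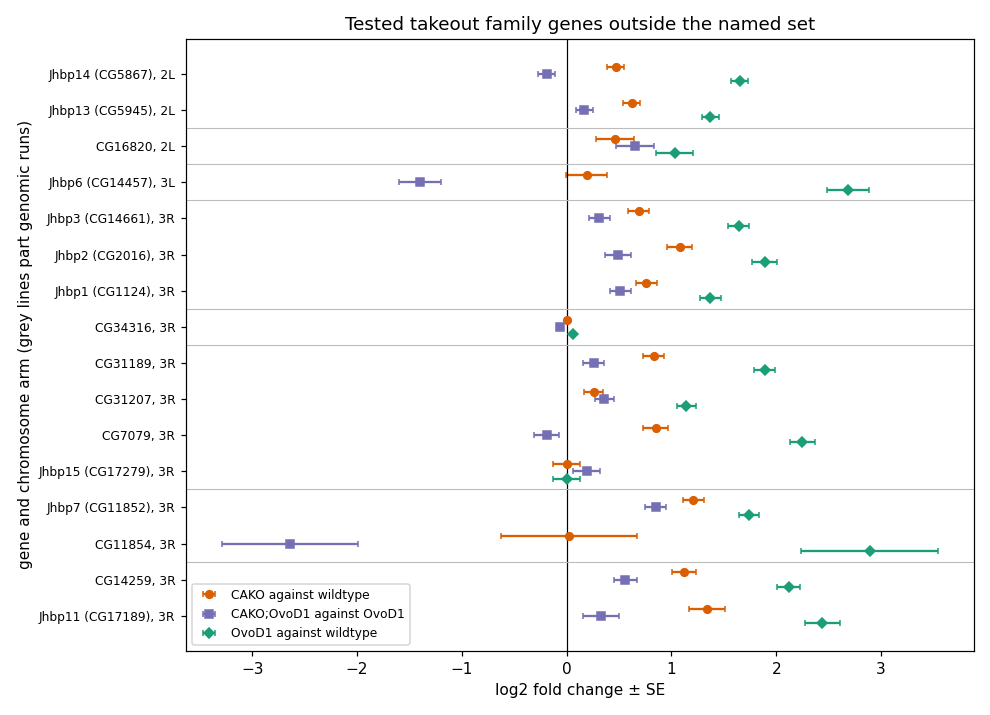
Log2 fold change with SE (horizontal axis) of the 16 tested takeout family genes outside the members (vertical axis, in genomic order with runs parted by grey lines) for CAKO against wildtype, CAKO;OvoD1 against OvoD1 and OvoD1 against wildtype. All fertile values lie between 0.00 and 1.34, sterile values lie between -2.64 and 0.85, and OvoD1 values lie between 0.00 and 2.89.

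In CAKO;OvoD1 against OvoD1, 1 of the 16 rose (Jhbp7) and 2 fell, beside 2.37% and 2.3% of all genes. The 2 that fell were CG11854 and Jhbp6 (CG14457). Jhbp6, on 3L, had log2 means of 4.01 in wildtype, 4.20 in CAKO, 6.69 in OvoD1 and 5.29 in CAKO;OvoD1, a sterile fold change of -1.40 (SE 0.20, limma, adjusted p = 0.0029). In OvoD1 against wildtype 14 of the 16 rose and none fell, beside 25.2% and 28.6% of all genes, and in CAKO;OvoD1 against CAKO 13 rose and none fell, beside 25.7% and 26.6%. The highest in OvoD1 were CG11854, at least 6.5-fold, Jhbp6 at 2.68 (SE 0.20), Jhbp11 at 2.44 (SE 0.17) and CG7079 at 2.25 (SE 0.12, adjusted p = 1.77e-07). In CAKO;OvoD1 against CAKO they were CG14259 at 1.56, Jhbp11 at 1.43, Jhbp7 at 1.38 and CG31189 at 1.32 (adjusted p = 1.68e-06). With muscle and photoreceptor centring 12 rose and 2 fell in OvoD1 against wildtype, beside 12.6% and 64.3% of all genes, and 3 rose and 2 fell in CAKO;OvoD1 against CAKO, beside 8.54% and 67.2%. Among these 3, Jhbp6 was called only through the other of its 2 probe sets. The probe set reported here was then at 0.27 in CAKO;OvoD1 against CAKO (limma, adjusted p = 0.287). The 2 that fell were Jhbp15 and CG34316, both within 0.2 of the floor in every genotype without centring, except Jhbp15 in CAKO;OvoD1, where 1 array read 2.70.

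Genes linked to what takeout is known for were read from lists as well. The shares of all genes called higher and lower were 4.01% and 2.43% in the fertile pair and 2.37% and 2.3% in the sterile pair. Of 6 tested fasting-responsive genes, 1 rose and 1 fell in CAKO against wildtype and 1 rose and 2 fell in CAKO;OvoD1 against OvoD1. Of 8 genes with sex-biased expression, of the head fat body or for yolk proteins, 1 rose and 4 fell in the fertile pair and 1 rose and 2 fell in the sterile pair, with median log2 fold changes of -0.44 and -0.35. Of 8 tested adult fat body genes, 3 rose and 1 fell in the fertile pair and 2 fell in the sterile pair. Summed on the linear scale, these fat body genes ran from 15.64 to 15.71 on the log2 scale in wildtype, 15.85 to 15.93 in CAKO, 16.47 to 16.54 in OvoD1 and 16.50 to 16.56 in CAKO;OvoD1. Of 9 tested midgut genes, 4 fell in the fertile pair and 3 in the sterile pair, and none rose. Their part in the values of the takeout genes was not tested.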

How the data were processed

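Each of 12 arrays was hybridised with cRNA from 25 pooled whole females of 1 genotype. The authors normalized the arrays by quantiles and ran GC-RMA (version not given in the sources used here). The log2 values they deposited were taken unchanged. The table holds 18952 probe sets, and the annotation pairs 13647 of them with a single gene. Probe sets whose mean was in the lowest 25% in every genotype (5081) were dropped, which left 13871. R 4.3.3 with limma 3.58.1 (lmFit, eBayes with a trend) fitted the 4 genotypes, with 8 residual degrees of freedom and Benjamini-Hochberg adjustment over all kept probe sets in each of 5 comparisons. The p-values are two-sided. A gene takes its value from its kept probe set with the highest mean, and is called if at least 1 probe set is called and none the opposite way. The fit was tested on simulated data. The number of arrays limits precision, and 3 arrays against 3 allow no exact permutation p below 0.1. Replicates are described as independent biological samples.

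The members and all lists were chosen with earlier results of these arrays known. Named were all members, other family genes called in at least 1 comparison (up to 4 each way by size), the 5 genes most like the 2L mean, 3 tested neighbours on each side of the 2L run and of takeout, jhamt and ovo. The like search for takeout could not be made. Gene order and current names come from the RefSeq release 6 annotation. No sequence is shown. Alternatives were other filters, fold thresholds, the methods' t-test, fits of the compared genotypes alone, 2 centrings, array weights, a replicate block and leaving out each array.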

Additional observations from a re-analysis of the deposited data

Results flagged for a closer look

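CG7916 was higher on every array without CA in fertile females and lower on every array without CA in sterile females. The separation in the sterile pair was narrow, with 13.21 in CAKO;OvoD1 and 13.23 in OvoD1 on the closest arrays. The sterile log2 difference was -0.23 (SE 0.23), and 30.5% of all genes had no overlap in that pair. The sterile minus fertile effect was -1.39 on the log2 scale. CG7916 is a member of the named set, which was chosen with values of these arrays known, so its call in the interaction is not taken as a test of this difference. Among the 16 tested family genes outside that set, the fit called the interaction in 4, beside 3.78% of all genes. Their list was also drawn up with results of these arrays known, so these calls and p-values are a description as well. The interaction was -1.59 in Jhbp6 (CG14457, limma, adjusted p = 0.0153), -1.01 in Jhbp11 (CG17189, adjusted p = 0.0444), -0.66 in Jhbp14 (CG5867, adjusted p = 0.0128) and -1.04 in CG7079 (adjusted p = 0.011). In Jhbp11 and Jhbp14 and in CG7079 the fertile difference was the higher of both, and in Jhbp6 the interaction rests on the lower values of CAKO;OvoD1 against OvoD1. Jhbp14 changed direction as CG7916 did, without overlap in either pair. Its log2 difference was 0.47 (SE 0.08) in fertile and -0.19 (SE 0.08) in sterile females, and neither was called. The Jhbp11 interaction was lost when any of 10 arrays was left out (adjusted p = 0.0528 to 0.1).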

How the results depend on the processing

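Calls in OvoD1 against wildtype were 8 of 8 members and 14 of 16 other family genes in every fit that left out 1 array, and 8 and 13 in CAKO;OvoD1 against CAKO. Leaving out 1 array at a time gave 4 to 6 members and 8 to 9 other family genes in CAKO against wildtype, 1 to 2 members and 2 to 4 others in CAKO;OvoD1 against OvoD1, and 2 to 4 members and 3 to 5 others in the interaction. In the interaction it was 2 members, in place of 4, without wildtype replicate 1, OvoD1 replicate 2, CAKO;OvoD1 replicates 2 or 3, or any 1 CAKO array, and dyw was then not called, nor without wildtype replicates 2 or 3. Only without CAKO;OvoD1 replicate 1 were 2 members called in the sterile pair.

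The methods' t-test after adjustment called 1 member and 3 other family genes in the fertile pair and 0 members and 1 other in the sterile pair, where limma called 1 and 3 and the unadjusted t-test 1 and 2. Fits of the 2 compared genotypes alone called 3 members in the fertile pair and 0 in the sterile pair. With no fold threshold 3 members and 7 others were called in the sterile pair, and at 2-fold 4 others in the fertile pair. Median centring called 2 members in the sterile pair. Muscle and photoreceptor centring called 3 members in the sterile pair, 7 others in the interaction, and 5 members and 5 others in CAKO;OvoD1 against CAKO, the last beside 8.54% of all genes called higher and 67.2% lower. It turned Jhbp15 (CG17279) to -0.69 and -0.63 and CG34316 to -0.64 and -0.82 in the comparisons of sterile with fertile females. Both lay at or near the floor before centring, where the centring shifts were -0.698 and -0.821. Fewer samples in a fit leave fewer degrees of freedom, and otherwise the cause was not tested. For the other counts under changed settings in this section, among them the fits that left out 1 array, no share over all genes is given. Nothing is therefore read from how these counts differ.

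Over all kept probe sets, same-numbered arrays of different genotypes correlated with r of -0.159 to 0.149 in their deviations, and the arrays were not treated as paired. This measure cannot show a factor that same-numbered arrays share in few genes, and 4 clock genes were highest in replicate 3 in every genotype. A replicate block called 3 members in the interaction in place of 4 and left the other counts of calls as they were. The t-test was not run for the interaction, a fit of 2 genotypes cannot give it, and each measured member had 1 probe set, so no other probe set could be tried.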

Other observations

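Replicate 3 had the highest value in each of the 4 genotypes for 4 of the 8 clock genes, per, tim, vri and cwo, against 1.37% of all 9969 genes tested, a pattern looked for after the values were seen. For per the arrays read 5.31, 4.99 and 5.54 in wildtype, 5.76, 5.73 and 6.07 in CAKO, 6.52, 6.45 and 7.16 in OvoD1, and 6.64, 6.62 and 7.21 in CAKO;OvoD1. None of the 8 measured members and none of the 16 other tested takeout family genes had replicate 3 highest in all 4 genotypes. At a share of 1.37% lists this short could hardly hold such a gene, so nothing is read from this. In dyw, CG11854, Jhbp15 and CG34316 both fertile genotypes lay at the floor, where ranks carry no meaning. Within OvoD1, replicate 3 was the highest for dyw (6.49) and the lowest for CG11854 (3.12).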
